A study of Mus musculus with 8 samples.

Results

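The epithelial sodium channel ENaC and its best known control route were followed in the outer medullary collecting duct of the kidney under a high-salt diet. The 6 genes were chosen by symbol: the subunits Scnn1a, Scnn1b and Scnn1g, the kinase Sgk1, the ubiquitin ligase Nedd4l and the deubiquitinase Usp2. All 6 were among the 55291 gene symbols measured, and all 6 were among the 13401 with enough signal to test (at least 1 CPM, a read count scaled to the library's total, in at least 4 of the 8 libraries). The mice, of the inbred strain C57BL/6J, were kept for 3 days on a diet of 3% salt (high salt, 4 libraries) or 0.3% salt (normal salt, 4 libraries). No genetic change or drug is given for either group, and neither the age nor the sex of the mice is stated in the labels used here. Each library was a pool of 100 to 120 collecting duct pieces dissected by hand from the enzyme-digested kidney of 1 mouse. Libraries are called by diet and by the number in the deposited column name, which was 2, 3, 4 or 6 under high salt and 1, 2, 3 or 6 under normal salt.

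ENaC is built from an alpha, a beta and a gamma subunit and lets sodium into principal cells across the membrane that faces the urine, the rate-limiting step of sodium uptake in the collecting duct. The hormone aldosterone, which is lower when salt intake is high, raises channel activity partly through the kinase SGK1. SGK1 phosphorylates NEDD4L, a ubiquitin ligase that binds the tail of each subunit and marks the channel for removal from the membrane, and USP2 takes ubiquitin off again.

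NEDD4L holds the subunits by a short PY motif (proline, proline, any residue, tyrosine). The codons of this motif are shown because the ligase recognises this motif in all 3 subunits. In the GENCODE M21 transcripts on GRCm38 (mm10), a search in reading frame found 1 such run of codons in the searched transcript of each subunit (Scnn1a-201, Scnn1b-201 and Scnn1g-201), in the last exon of each gene (exon 12 of Scnn1a, exon 13 of Scnn1b and exon 13 of Scnn1g). Each stretch below is 60 bases of the plus strand, with the 12 bases of the motif in capitals.
Scnn1a, chr6:125343972-125344031: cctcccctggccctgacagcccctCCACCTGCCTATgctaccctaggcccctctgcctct
Scnn1b, chr7:121917961-121918020: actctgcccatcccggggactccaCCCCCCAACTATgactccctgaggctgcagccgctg
Scnn1g, chr7:121767445-121767504: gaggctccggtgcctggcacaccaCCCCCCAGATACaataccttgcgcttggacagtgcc
The motif ended 78, 60 and 66 coding bases before the stop codon in Scnn1a, Scnn1b and Scnn1g.

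Sgk1 is a known direct target of the mineralocorticoid and glucocorticoid receptors, which bind inverted repeats of AGAACA. The full element, AGAACA followed by any 3 bases and then TGTTCT, has the same form on both strands and was searched in the RefSeq promoter windows of GRCm38.p6, which hold 300 bases around each start. It was present in 3 of 32851 windows (0.00913%), and 1 of these 3 belonged to Sgk1. That window lies at chr10:21993640-21993939 on the plus strand. The element, in capitals here, began 189 bases before the start.
Sgk1 promoter window: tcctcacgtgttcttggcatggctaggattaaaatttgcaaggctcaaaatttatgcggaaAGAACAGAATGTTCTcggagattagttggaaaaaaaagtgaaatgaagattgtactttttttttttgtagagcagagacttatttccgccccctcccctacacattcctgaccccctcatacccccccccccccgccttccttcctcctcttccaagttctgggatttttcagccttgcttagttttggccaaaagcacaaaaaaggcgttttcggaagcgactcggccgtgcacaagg
RefSeq lists 6 start windows for Sgk1, of which this 1 held the element and 3, this one included, held the single repeat (AGAACA on either strand, which is part of the element and was found in 19.0% of all windows). The windows of Scnn1b, Scnn1g and Usp2, 1 each, held neither the element nor the single repeat. A match is only a match of letters, and the values below are per gene and do not show which start was used. The windows of Scnn1a and Nedd4l were not used here.

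Markers of both main cell types of the collecting duct were abundant. Principal cell markers other than the subunits summed to 26479 to 31051 CPM under high salt and 16870 to 22468 CPM under normal salt, and the diets did not overlap. Of these 8 markers 2 had a lower mean under high salt (47.2% of all genes did) and 6 a higher mean. By limma 0 passed at an adjusted p under 0.05 (0.0821% of all genes did) and 3 were higher at an unadjusted p under 0.05 (5.95% of all genes were). These 3 were the water channel Aqp2 (log2 fold change of high salt over normal salt 0.67) and, named after their values were seen, the water channel Aqp3 (0.68) and the potassium channel Kcnj1 (0.61), each without overlap. Among all genes, 3.66% were higher without overlap. Aqp2 made up the largest part of the sum, with 15689 ± 1618 CPM under high salt and 9979 ± 2120 CPM under normal salt (SD, n = 4 each). Intercalated cell markers summed to 8257 to 9995 CPM under high salt and 9652 to 10939 CPM under normal salt. Of the 9, 7 had a lower mean (47.2% of all genes did) and 0 passed by limma. Without overlap, 3 were lower (2.75% of all genes were). The 2 that were lower at an unadjusted p under 0.05 (4.37% of all genes were), named after their values were seen, were the ammonia channel Rhcg (-0.56) and the proton pump subunit Atp6v1b1 (-0.40). The 2 intercalated cell markers with the highest mean, Aqp6 (0.10) and Slc4a1 (0.01), were not lower, and both overlapped between the diets. Distal convoluted and connecting tubule markers summed to 209 to 461 CPM under high salt and 172 to 312 CPM under normal salt. Of the 5 tested, 1 had a lower mean (47.2% of all genes did) and 4 a higher mean. At an unadjusted p under 0.05, 3 were higher (5.95% of all genes were), and 0 passed by limma. Thick ascending limb markers, the neighbouring segment, varied most, with 98.3, 103, 463 and 2749 CPM in high-salt libraries 2, 3, 4 and 6 and between 602 and 2143 CPM under normal salt. All 8 of them had a lower mean under high salt (47.2% of all genes did), 0 passed by limma and 0 had an unadjusted p under 0.05.

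Fibroblast and pericyte markers reached 291 CPM in normal-salt library 1, against 30.3 to 139 CPM in the other libraries. Macrophage markers peaked in the same library (49.0 CPM, against 19.3 to 28.5 CPM elsewhere). That library held the highest CPM of Scnn1a and Sgk1, whereas in TPM Sgk1 was higher in normal-salt library 3 (399, against 319 TPM). Normal-salt library 1 also had the highest share of CPM from mitochondrial genes (8.55%, against 5.77% to 6.49% elsewhere). Its array quality weight was the lowest (0.239, against 0.741 to 1.70 elsewhere). Without it the log2 fold change was -1.26 for Scnn1a (limma, adjusted p = 0.0216) and -1.37 for Sgk1 (limma, adjusted p = 0.122). Depth was 69.2 to 87.7 M estimated counts per library under high salt and 64.8 to 94.1 M under normal salt, so 1 count was worth 0.0106 to 0.0154 CPM and the lowest estimated count of any of the 6 genes was 2889 (Usp2 in high-salt library 2). In pooled ducts, fewer cells of a type and less RNA per cell cannot be told apart.

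Across the channel and its control route, the alpha subunit was the only gene whose lower level passed the test. Scnn1a had 496, 443, 352 and 650.4 CPM in high-salt libraries 2, 3, 4 and 6, against 1394, 1086, 1165 and 1147 CPM in normal-salt libraries 1, 2, 3 and 6. Every high-salt library lay below every normal-salt library, with a wide gap between high-salt library 6 and normal-salt library 2. The means were 485 ± 125 CPM under high salt and 1198 ± 135 CPM under normal salt (SD, n = 4 each). The log2 fold change, on the log2(CPM + 1) scale as everywhere here, was -1.33 (SE 0.17, 95% interval -1.71 to -0.95, limma, adjusted p = 0.026 over all genes), a level 2.52-fold lower. Of the 6 genes it was the 1 that passed. Lower calls at an adjusted p under 0.05 made up 0.0522% of all genes tested, and higher calls 0.0298%. Of the 6 genes 5 had a lower mean, as did 47.2% of all genes tested.

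The call for Scnn1a was close to its threshold, while its size moved little with any 1 mouse left out. With each library left out in turn the log2 fold change stayed between -1.48 and -1.19. The adjusted p by limma was above 0.05 without high-salt library 2 (0.0708), 3 (0.109) or 4 (0.0517) and without normal-salt library 3 (0.0766) or 6 (0.0605). With the mean of the principal cell markers as a covariate, which itself separated the diets, the log2 fold change was -1.06 and the adjusted p by limma was 0.687. Relative to the summed principal cell markers, Scnn1a stood at 1.13% to 2.36% under high salt and 4.83% to 7.09% under normal salt. Scnn1b, Scnn1g and Sgk1 separated the diets on this scale too, while Nedd4l and Usp2 overlapped. Scnn1g, whose CPM overlapped, stood at 1.98% to 2.37% under high salt and 2.71% to 4.89% under normal salt. The marker sum was itself higher under high salt, mostly through Aqp2, Aqp3 and Kcnj1. Of the other 5 markers, Hsd11b2, Avpr2, Fxyd4 and Gata3 had log2 fold changes of -0.04 to 0.09, and Elf5 had 0.25. Of these 5, all but Hsd11b2 were named after their values were seen.

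**Figure D1:**
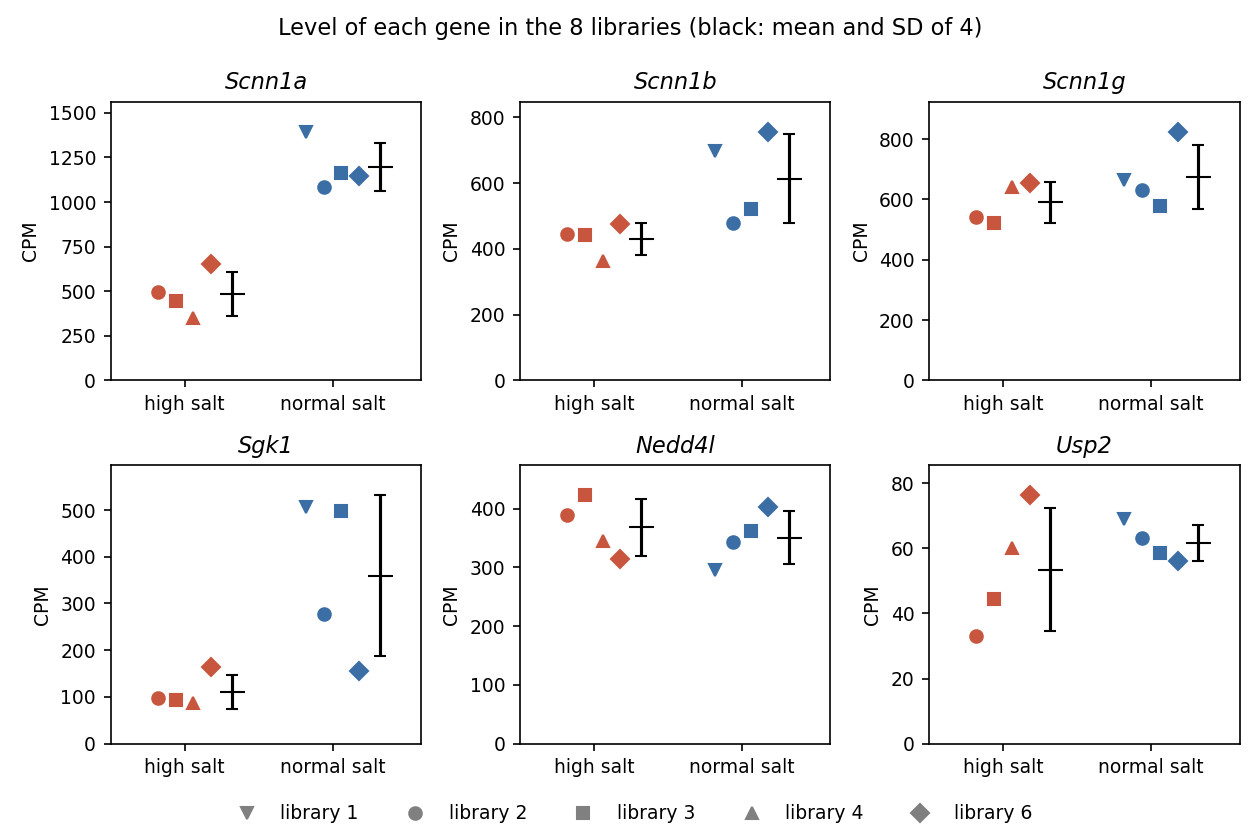
CPM of Scnn1a, Scnn1b, Scnn1g, Sgk1, Nedd4l and Usp2 (vertical axes from 0, 1 panel per gene) in the 4 high-salt and 4 normal-salt libraries, with marker shape for the library number and the mean and SD in black. Scnn1a and Scnn1b separate the diets, Scnn1a by the wider gap, whereas Sgk1 is low in normal-salt library 6 (156 CPM) and overlaps high-salt library 6 (164 CPM).

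The beta subunit was lower on average by a smaller amount that did not pass the test. Scnn1b had 444, 443, 362 and 475 CPM in high-salt libraries 2, 3, 4 and 6, against 699, 477, 522 and 756 CPM in normal-salt libraries 1, 2, 3 and 6. The diets did not overlap, but high-salt library 6 and normal-salt library 2 were almost level. The log2 fold change was -0.49 (SE 0.16, 95% interval -0.83 to -0.14, limma, unadjusted p = 0.00982, adjusted p = 0.281). Among all genes tested, 4.37% were lower at an unadjusted p under 0.05, and 2.75% were lower with no overlap between the diets. Of the 6 genes, 2 had no overlap (Scnn1a and Scnn1b), as had 6.4% of all genes in either direction. With the principal cell marker mean as a covariate the log2 fold change of Scnn1b was -0.0361 (95% interval -0.72 to 0.65, limma, adjusted p = 0.971). This covariate itself separated the diets, so the fit cannot tell its share from that of the diet.

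The gamma subunit showed the smallest difference of the 3. Scnn1g had 542, 524, 642 and 653 CPM in high-salt libraries 2, 3, 4 and 6, against 665, 632, 577 and 825 CPM in normal-salt libraries 1, 2, 3 and 6. The ranges overlapped, and normal-salt library 6 stood above the rest. The log2 fold change was -0.19 (SE 0.13, limma, adjusted p = 0.678), and its 95% interval of -0.47 to 0.10 does not reach the mean change of Scnn1a. The log2 fold change ran from -0.26 without normal-salt library 3 to -0.09 without normal-salt library 6. Its sign turned positive (0.31, 95% interval -0.19 to 0.80) with the principal cell marker mean as a covariate, which itself separated the diets. Scnn1g and Scnn1b are 96563 bases apart and both read from the plus strand (chr7:121734479-121768475 for Scnn1g, chr7:121865038-121918514 for Scnn1b), whereas Scnn1a is at chr6:125320659-125344943 on the plus strand.

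Whether the subunits changed unequally was tested on their ratios within each library, which no scaling between libraries can move. The log2 ratio of Scnn1a to Scnn1b, in CPM, was 0.16, 0.00056, -0.04 and 0.45 in high-salt libraries 2, 3, 4 and 6, against 1.00, 1.19, 1.16 and 0.60 in normal-salt libraries 1, 2, 3 and 6. It did not overlap between the diets, and the mean was lower by 0.84 under high salt (exact two-sided permutation p = 0.0286, the smallest that 4 and 4 libraries allow, and 0.0429 adjusted over the 3 ratios). The log2 ratio of Scnn1a to Scnn1g averaged -0.31 ± 0.38 under high salt and 0.83 ± 0.27 under normal salt (SD, n = 4 each), a difference of -1.15 (exact permutation p = 0.0286, adjusted p = 0.0429). Thus the alpha subunit fell relative to both partners. The log2 ratio of Scnn1b to Scnn1g averaged -0.45 ± 0.27 under high salt and -0.15 ± 0.20 under normal salt, overlapped between the diets and differed by -0.30 (exact permutation p = 0.143, adjusted p = 0.143). Without high-salt library 2, 3 or 4, the adjusted p of both alpha ratios was 0.0857 by the exact permutation test. In each of these fits the unadjusted p was 0.0571 for Scnn1a to Scnn1b. For Scnn1a to Scnn1g it stayed at 0.0286, the smallest that 3 and 4 libraries allow. In normal-salt library 6 both alpha ratios were the lowest of their diet, at 0.60 against Scnn1b and 0.48 against Scnn1g.

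Per unit of transcript length (TPM), the order of the subunits differed between the diets. Under high salt Scnn1g led with 324 ± 34.9 TPM, followed by Scnn1b with 280 ± 33.1 and Scnn1a with 215 ± 55.9 TPM (SD, n = 4). Under normal salt Scnn1a led with 526 ± 26.8 TPM, followed by Scnn1b with 393 ± 87.7 and Scnn1g with 365 ± 73.4 TPM (SD, n = 4). In all 4 high-salt libraries Scnn1g lay above Scnn1b and Scnn1b above Scnn1a. Under normal salt Scnn1a lay above Scnn1b in all 4, while Scnn1b lay above Scnn1g in 3 of 4, and the ranges of neighbouring subunits overlapped in both diets. Scnn1a ranked 706th by mean TPM among the genes tested under high salt and 249th under normal salt.

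Scnn1a made up 27.3%, 25.6%, 20.98% and 30.1% of the summed TPM of the 3 subunits in high-salt libraries 2, 3, 4 and 6, against 43.8%, 42.4%, 44.2% and 34.9% in normal-salt libraries 1, 2, 3 and 6. All 4 high-salt shares lay below all 4 normal-salt shares. The summed level was 819 ± 97.6 TPM under high salt and 1284 ± 162 TPM under normal salt (SD, n = 4 each), without overlap. Shares and sums are given as a description, without a test.

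**Figure D2:**
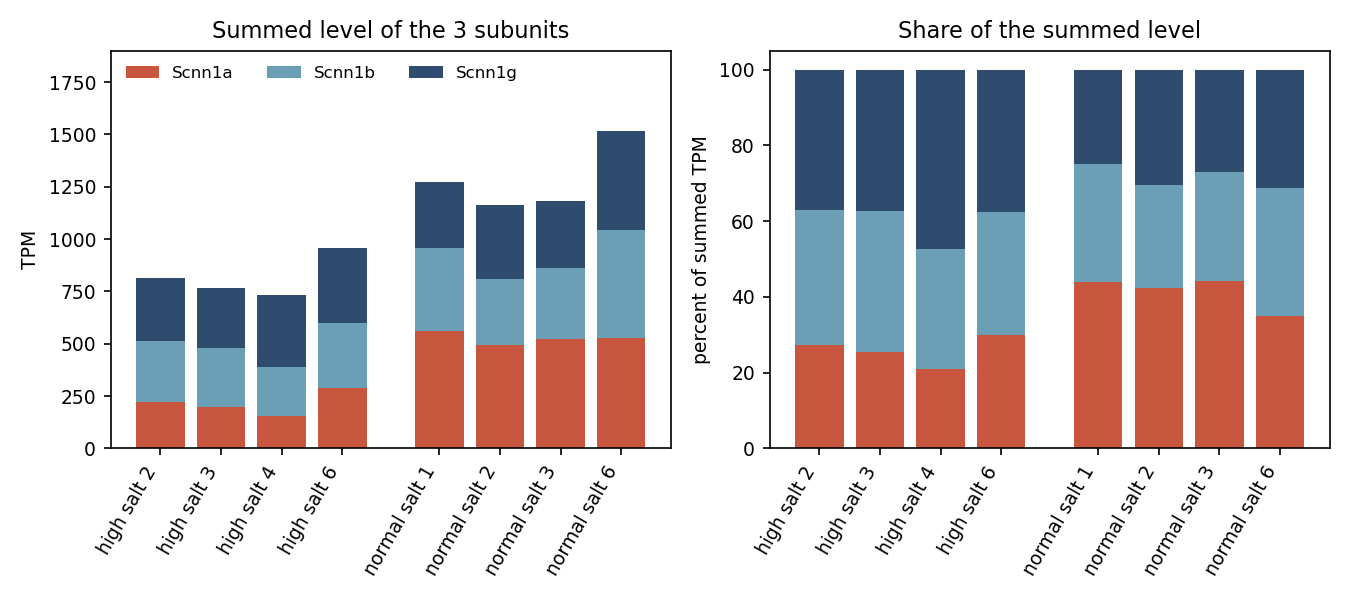
Summed TPM of Scnn1a, Scnn1b and Scnn1g per library (left) and the share of each subunit in percent of that sum (right), with the 4 high-salt libraries before the 4 normal-salt libraries. The Scnn1a share is 20.98% to 30.1% under high salt and 34.9% to 44.2% under normal salt, while the share of Scnn1g is 37.0% to 47.4% under high salt and 24.8% to 31.1% under normal salt.

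Sgk1 had the largest mean log2 difference of the 6 genes and the widest spread under normal salt, and it did not pass the test. It had 97.8, 93.4, 87.5 and 164 CPM in high-salt libraries 2, 3, 4 and 6, against 506, 278, 499 and 156 CPM in normal-salt libraries 1, 2, 3 and 6. Of the normal-salt libraries 3 lay far above every high-salt library, and library 6 lay below high-salt library 6, so the diets overlapped. The means were 111 ± 35.9 CPM under high salt and 360 ± 172 CPM under normal salt (SD, n = 4 each). The log2 fold change was -1.59 (SE 0.35, 95% interval -2.35 to -0.82, limma, unadjusted p = 0.000889, adjusted p = 0.124). Without normal-salt library 6 it was -1.94 with a limma adjusted p of 0.0576, and over all alternatives the adjusted p ran from 0.0369 (with array quality weights) to 0.687. Thick ascending limb markers were highest of their diet in high-salt library 6, where Sgk1 was highest too, but in normal-salt library 6, where Sgk1 was lowest, they were second highest of their diet (1632 CPM). The part of that segment in the Sgk1 levels was not tested beyond a covariate fit, in which the log2 fold change was -1.41 (limma, adjusted p = 0.28). With the principal cell marker mean as a covariate it was -2.69 (limma, adjusted p = 0.687). The gene is at chr10:21882184-21999903 on the plus strand.

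Nedd4l, the ligase that SGK1 restrains, had 389, 423, 345 and 314 CPM in high-salt libraries 2, 3, 4 and 6, against 295, 344, 362 and 403 CPM in normal-salt libraries 1, 2, 3 and 6. The ranges overlapped almost entirely. The log2 fold change was 0.07 (SE 0.12, 95% interval -0.20 to 0.34, limma, adjusted p = 0.894), an interval that covers levels from 0.868 to 1.27 times those under normal salt. Its sign was not stable: it was -0.0523 with the thick ascending limb marker covariate. Per length Nedd4l was measured at 215 ± 26.3 TPM under high salt and 205 ± 33.5 TPM under normal salt (SD, n = 4 each). Nedd4l was thus next to Scnn1a under high salt, where Scnn1a was the higher in 1 of 4 libraries. Sgk1 stood at 89.5 ± 29.3 TPM under high salt and 270.1 ± 116 TPM under normal salt. Under high salt Nedd4l was above Sgk1 in 4 of 4 libraries with no overlap, and under normal salt Sgk1 was above Nedd4l in 3 of 4 libraries with overlap.

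Usp2 had 32.9, 44.3, 59.9 and 76.3 CPM in high-salt libraries 2, 3, 4 and 6, against 68.8, 63.0, 58.4 and 56.2 CPM in normal-salt libraries 1, 2, 3 and 6. The high-salt libraries spread over 2.32-fold and enclosed the normal-salt range, which spanned 1.22-fold. The log2 fold change was -0.27 (SE 0.21, 95% interval -0.74 to 0.20, limma, adjusted p = 0.727). It was -0.06 without high-salt library 2 (limma, adjusted p = 0.957) and -0.46 without high-salt library 6 (limma, unadjusted p = 0.0279, adjusted p = 0.415). Within high salt, Usp2 had the same order of libraries as the thick ascending limb markers, and with those markers as a covariate its log2 fold change was 0.0360. The part of that segment in its level was not otherwise tested. At 19.7, 26.1, 35.1 and 47.5 TPM in high-salt libraries 2, 3, 4 and 6, against 35.8, 41.2, 35.5 and 35.8 TPM in normal-salt libraries 1, 2, 3 and 6, it was the lowest of the 6 per length in both diets, with no overlap with its neighbour in that order. Its position is chr9:44067021-44095627, plus strand.

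In the annotation, Scnn1a, Scnn1g and Sgk1 overlap no other gene. Scnn1b overlaps Cog7, a Golgi gene on the opposite strand, over 39152 bases, and Cog7 was measured at 120 ± 6.97 CPM under high salt and 122 ± 13.6 CPM under normal salt (SD, n = 4 each). Since the strand setting of the counting is not given in the sources used here, reads of Scnn1b and Cog7 may not have been told apart. The antisense genes measured within Nedd4l and Usp2 reached at most 10.6 and 0.165 CPM.

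**Figure D3:**
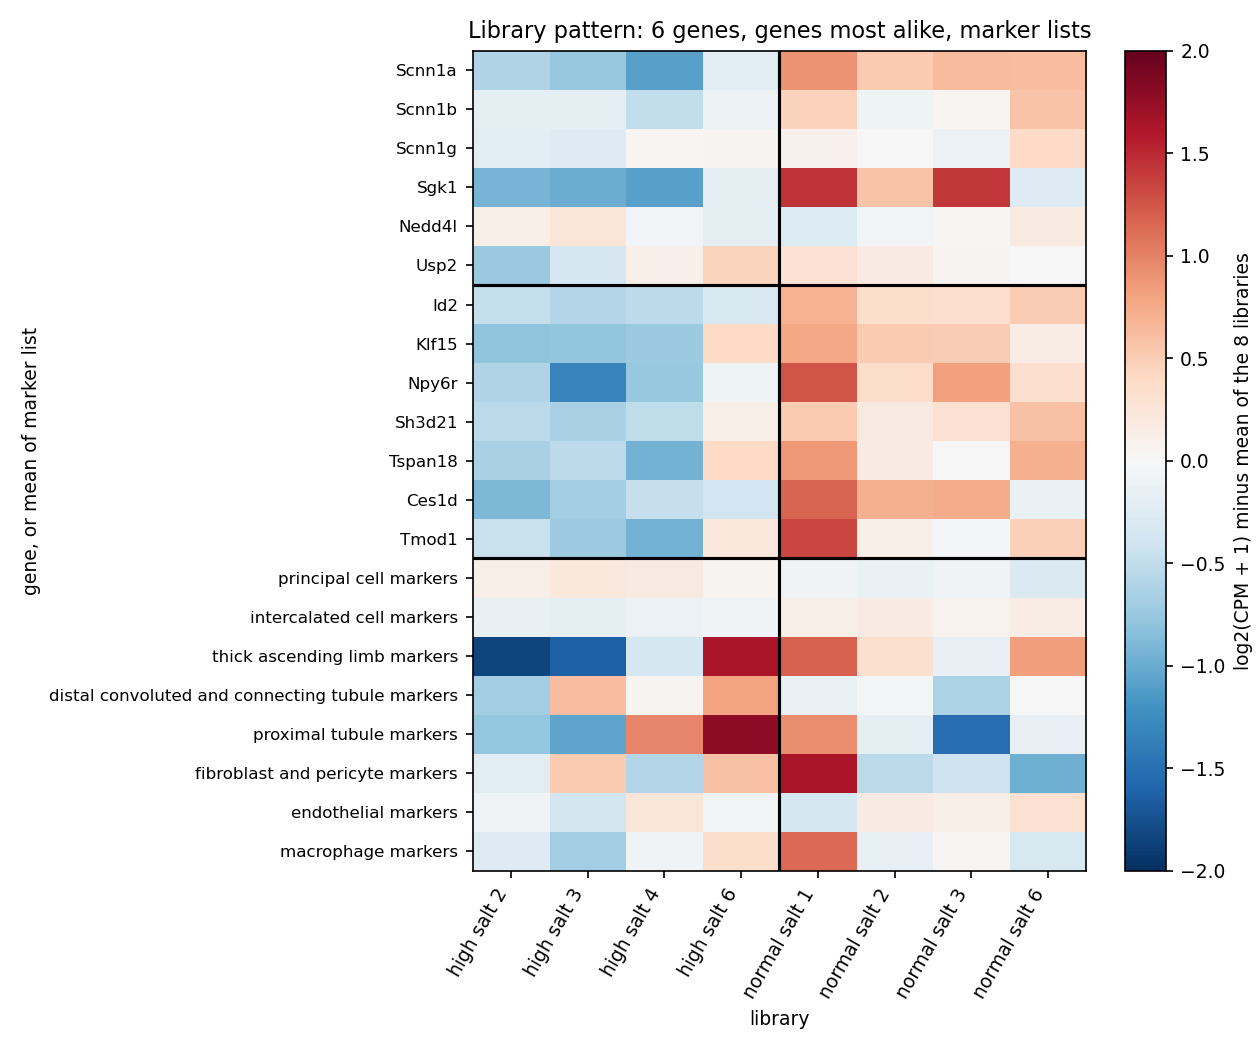
Heat map of log2(CPM + 1) minus the mean of the 8 libraries (colour, scale ending at -2 and 2) for the 6 genes, for the genes most alike Scnn1a or Sgk1, and for the means of 8 marker lists, with the 4 high-salt libraries left of the 4 normal-salt libraries. Scnn1a and Id2 are below their mean in all 4 high-salt libraries and Klf15 in 3 of them, while thick ascending limb markers are lowest in high-salt libraries 2 and 3 and highest in high-salt library 6.

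The genes whose library pattern was most like that of Scnn1a were found by the mean absolute difference of centred log2(CPM + 1) over the 8 libraries, among 10331 genes with a mean of at least 5 CPM. This measure follows the diet difference as well as the spread within a diet and is a description, without a test. The closest was Id2, which blocks DNA binding by helix-loop-helix proteins (0.21, where the median gene lay at 0.67), with 124 ± 11.3 CPM under high salt and 241 ± 28.1 CPM under normal salt (SD, n = 4 each). Next came the transcription factor Klf15 (0.24), with 20.5, 20.9, 21.5 and 48.6 CPM in high-salt libraries 2, 3, 4 and 6, against 63.8, 53.0, 52.6 and 40.6 CPM in normal-salt libraries 1, 2, 3 and 6. Klf15 overlapped between the diets in the same libraries as Sgk1, high-salt 6 and normal-salt 6. The other 3 were the neuropeptide Y receptor gene Npy6r (0.25), Sh3d21 (0.27) and the tetraspanin Tspan18 (0.27).

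Nearest to Sgk1 was the carboxylesterase Ces1d (0.29, where the median gene lay at 0.87), with 62.8 ± 10.1 CPM under high salt and 155 ± 52.5 CPM under normal salt (SD, n = 4 each). Its reads may be shared with closely related carboxylesterases. Npy6r (0.33), Scnn1a (0.35), Klf15 (0.41) and the actin-capping gene Tmod1 (0.50) followed, so that Npy6r and Klf15 were near both. Scnn1a was the third nearest gene to Sgk1, whereas Sgk1 ranked 32nd from Scnn1a. Of these genes Id2 and Scnn1a passed the test over all genes, and the others had adjusted p from 0.0815 (Ces1d) to 0.329 (Tmod1) by limma.

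Around the 6 genes, 57 further genes of the channel family, its kinases, ligases, deubiquitinases, trafficking partners and transcriptional control were listed, of which 52 could be tested. By limma 0 of the 52 passed at an adjusted p under 0.05 (0.0821% of all genes did), and 4 had an unadjusted p under 0.05, 3 lower (Deptor, Tsc22d3 and Zbtb16) and 1 higher (Usp10). Among all genes tested, 10.3% had an unadjusted p under 0.05, 4.37% lower and 5.95% higher. The median log2 fold change of the 52 was -0.03, against 0.01 for all genes. Lower means were found in 28 of the 52, and in 47.2% of all genes tested.

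Channel relatives were sparse: Asic1, an acid-sensing channel, was the only other tested member of the family, with 7.32 ± 1.81 CPM under high salt and 8.07 ± 2.52 CPM under normal salt (SD, n = 4 each), and Asic2 to Asic5 were below the level tested. Among the SGK and AKT kinases and their upstream kinases, Deptor, an inhibitor of the mTOR kinase, had 129 ± 9.73 CPM under high salt and 156 ± 11.8 CPM under normal salt (log2 fold change -0.28, limma, adjusted p = 0.292) without overlap. Of all genes tested, 2.75% were lower without overlap. Mtor itself (0.16) and Mapkap1 (-0.12), a subunit of the complex that activates SGK1, had adjusted p of 0.705 and 0.67 by limma. The paralogues of Sgk1 were far lower per length than Sgk1, with Sgk2 averaging 3.16 TPM under high salt and 3.38 TPM under normal salt and Sgk3 averaging 4.38 TPM under high salt and 4.03 TPM under normal salt. Both paralogues were named after their values were seen.

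Of 10 tested NEDD4 family ligases and adaptors, Nedd4l included, 0 passed by limma (0.0821% of all genes did). An unadjusted p under 0.05 was found in 0 of the 10 (10.3% of all genes). Their log2 fold changes ran from -0.21 (Smurf1) to 0.08 and had a median of 0.04. Among them, the ligases Wwp2 (-0.12) and Wwp1 (0.07) and the adaptor Ndfip1, which activates these ligases (-0.11), had limma adjusted p from 0.695 to 0.834. Nedd4, the closest relative of Nedd4l and named after its values were seen, averaged 131 ± 5.21 TPM under high salt and 129 ± 32.5 TPM under normal salt (SD, n = 4 each), below Nedd4l in both diets.

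Of the 4 deubiquitinases, Usp10 did not overlap between the diets (higher without overlap were 3.66% of all genes tested), at 81.7 ± 6.37 CPM under high salt and 69.5 ± 3.06 CPM under normal salt (SD, n = 4 each), and did not pass (log2 fold change 0.23, limma, adjusted p = 0.376). Usp8 (0.08) and Uchl3 (0.05) had adjusted p of 0.807 and 0.932 by limma. Of 16 complex and trafficking genes, 10 had lower means (47.2% of all genes tested did). Tsc22d3, the glucocorticoid-induced leucine zipper protein that joins SGK1 at the channel, had 32.3 ± 1.21 CPM under high salt and 39.3 ± 5.10 CPM under normal salt (-0.27, limma, adjusted p = 0.423). The kinases Wnk1 (0.19) and Wnk4 (0.19) and the ubiquitin ligase Stub1 (0.12) had adjusted p from 0.624 to 0.767 by limma.

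The genes of transcriptional control had lower means in 8 of 10 (47.2% of all genes tested did), and 0 passed by limma (0.0821% of all genes did). Their median log2 fold change was -0.09. Zbtb16, induced by glucocorticoids, had 29.3, 1.96, 12.1 and 14.5 CPM in high-salt libraries 2, 3, 4 and 6, against 15.1, 35.6, 38.4 and 68.1 CPM in normal-salt libraries 1, 2, 3 and 6 (log2 fold change -1.62, limma, adjusted p = 0.405). Its order of normal-salt libraries was not that of Sgk1: it was highest in library 6, where Sgk1 was lowest. The clock gene Per1 (-0.63), the steroid receptor chaperone Fkbp5 (-0.41) and Mllt3, a partner in repression of Scnn1a (-0.16), had adjusted p from 0.56 to 0.783 by limma. The mineralocorticoid receptor Nr3c2, named after its values were seen, had 165 ± 13.8 CPM under high salt and 171 ± 32.7 CPM under normal salt (SD, n = 4 each). Hsd11b2, which keeps glucocorticoids from that receptor, had a log2 fold change of -0.04 (limma, adjusted p = 0.942).

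**Figure D4:**
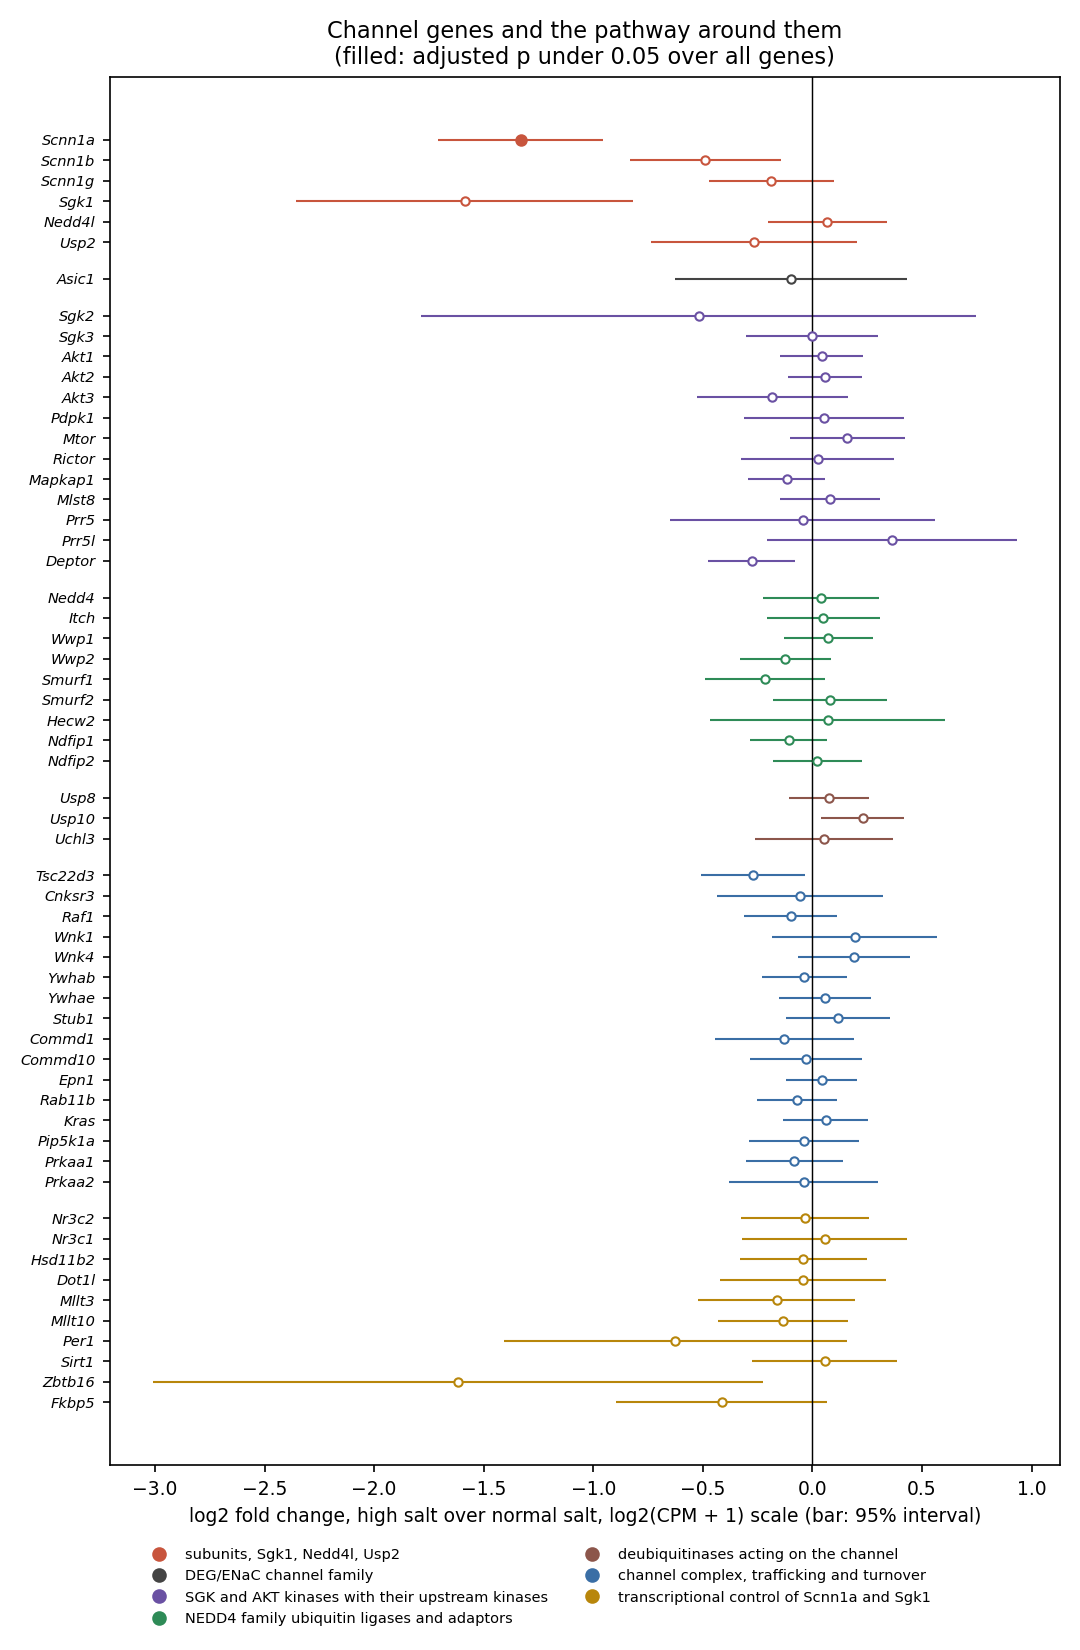
Log2 fold change of high salt over normal salt on the log2(CPM + 1) scale (horizontal axis, points, with 95% intervals as bars) for the 6 genes and the 52 other tested genes of the pathway, coloured by list. The filled point, Scnn1a at -1.33, is the gene that passed at an adjusted p under 0.05, and Sgk1 (-1.59) and Zbtb16 (-1.62) lie further left with wider intervals.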

How the data were processed

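Per the labels' protocols the 8 libraries, 4 per diet, were made with a stranded mRNA kit. FastQC, Trimmomatic and the mm10 build are named in the submitters' processing notes. No aligner, counting program, strand setting or annotation is given in the sources used here. Expression was deposited by the authors as CPM on a log2 scale, with a common lowest value of -5.29, and as TPM. The test had been planned for linear CPM. The log2 values were therefore returned to the linear scale, less the lowest value, and scaled to a common total. Steps between low values gave estimated counts. Of those under 1000, 83.8% to 85.0% per library were whole within 0.005 of a count, so the main test used no count model.

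Column names gave the diet but could not be tied to single sample titles. Genes with at least 1 CPM in at least 4 libraries entered limma 3.58.1 (R 4.3.3) as log2(CPM + 1), with two-sided moderated tests and Benjamini-Hochberg adjustment over 13401 genes, called under 0.05. The median log2 fold change of all genes was 0.01. Subunit ratios were compared by exact permutation over libraries. Alternatives were another pseudocount, no filter, median-of-ratios scaling, TPM, voom on the estimated counts, other limma settings, marker covariates, each library left out and a replicate block. Each library came from 1 mouse, so the tests set the diet difference against the spread between libraries. That spread holds mouse and dissection together, which cannot be told apart.

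The 6 genes and all lists were chosen with earlier results of these data known. The genes named are the 6, and up to 4 others per pathway list with the smallest p and a mean of at least 5 CPM. Also named are the 2 highest markers of principal and of intercalated cells, and the 5 genes most like Scnn1a or Sgk1. The rule also covered the 2 highest of each other marker list, which are not named here. Genes outside this rule are said to be named after their values were seen. Positions are from GENCODE M21 (GRCm38) and promoters from RefSeq (GRCm38.p6).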

Additional observations from a re-analysis of the deposited data

Results flagged for a closer look

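Within each diet, 17 values (the 6 genes, the 3 subunit ratios and the 8 marker sums) were screened for 1 library far from the other 3, in 34 groups of 4, of which chance marks about 1 in 20. In 4 groups a library stood apart. Sgk1 was at 164 CPM in high-salt library 6, against 97.8, 93.4 and 87.5 CPM in the others of its diet. Thick ascending limb markers summed to 2749 CPM in the same library, against 98.3, 103 and 463 CPM. Fibroblast and pericyte markers summed to 291 CPM in normal-salt library 1, against 53.0, 49.1 and 30.3 CPM, and macrophage markers to 49.0 CPM there, against 19.6, 22.1 and 19.3 CPM. Without high-salt library 6 the log2 fold change of Sgk1 was -1.79 (limma, adjusted p = 0.11), and without normal-salt library 1 it was -1.37 (adjusted p = 0.122). How far the other cells move the 6 genes was not tested beyond the covariate fits.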

How the results depend on the processing

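Scnn1a kept its direction in all 20 alternatives, was called in 13 and was not called in 7. It was not called without a filter on low values (-1.33, limma, adjusted p = 0.228, 30343 genes tested), with the principal cell marker covariate (-1.06) or in 5 of the 8 fits that left out a library (range over the 8 from -1.48 to -1.19). Sgk1 was called with array quality weights alone (-1.67, adjusted p = 0.0369), and ran from -1.94 to -1.37 over the libraries left out. Values that changed sign, none of them called, were Scnn1g with the principal cell marker covariate (0.31), Usp2 with the thick ascending limb marker covariate (0.0360), and Nedd4l with that covariate (-0.0523) and over the libraries left out (-0.0119 to 0.141). The cause was not tested. Scnn1b kept its direction and was not called in any of the 20.

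The 11 genes called became 0 without a filter (1933 at an unadjusted p under 0.05) and with the principal cell marker covariate (900 at that level), 5 with TPM, 22 with robust moderation, 40 with the thick ascending limb covariate and 129 with array quality weights. They ranged from 0 to 50 over the libraries left out (0, by limma, without high-salt library 4 or normal-salt library 3, with 924 and 1231 genes at an unadjusted p under 0.05). The column numbers 2, 3 and 6 occur in both diets. The deviations of same-numbered libraries from their diet mean correlated over genes at 0.21, 0.29 and 0.002. Pairs with unlike numbers ran from -0.27 to 0.30. For high-salt libraries 2 and 3 the same-numbered normal-salt library gave the highest value, and for library 6 it did not. What the shared column numbers stand for is not said in the labels and was not tested. With these numbers as a replicate block, limma called 37 genes, against 23 in the same 6 libraries unpaired, an alternative chosen after seeing the data; Scnn1a was at -1.11 (adjusted p = 0.0209). The log2 ratios of Scnn1a to Scnn1b and to Scnn1g differed by -0.78 and -0.88 under this block (adjusted p = 0.375 by an exact sign-flip test, where 0.25 is the smallest unadjusted p). Over the libraries left out they ranged from -0.97 to -0.78 and from -1.27 to -0.96. This setting also dropped high-salt library 4 and normal-salt library 1, and 3 pairs allow no call, so it says nothing about the stability of the ratios. Each of the 6 genes had 2889 or more estimated counts in every library, and 4 mice per diet limit the precision.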
